A study of Mus musculus with 16 samples.

Results

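The genes described here act in the metabolism of vitamin A (retinoids) and of alcohols in the liver. They are Rbp4, Bco1, Retsat, Adh1, Adh4, Rdh16, Aldh1a1, Aldh1a7 and Cyp26a1. These 9 genes were found by matching their symbols to the gene identifiers of the deposited tables, out of 78317 genes listed, and all 9 were among the 14781 genes with enough counts to be tested. RNA had been sequenced from livers of wild-type C57BL/6J mice, an inbred strain, in 4 groups of 4 libraries. FNC were females and MNC males on a normal diet with 4.5% of calories from fat (LabDiet 5053), and FHF were females and MHF males on a high fat diet with 60% of calories from fat (Research Diets D12492). Mice came at 6 weeks of age, ate their diet for 10 weeks and were housed in groups. The 2 diets came from different makers and differ in more than fat, and the labels give no vitamin A content. The study asked what the high fat diet does in males and in females.

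Vitamin A is stored in the liver mainly as retinyl esters in stellate cells. Retinol leaves hepatocytes bound to retinol-binding protein, which Rbp4 encodes, and is oxidized in cells to retinal by alcohol and retinol dehydrogenases and then to retinoic acid by retinaldehyde dehydrogenases. Retinoic acid acts through nuclear receptors that bind DNA at direct repeats of a short half-site, and CYP26 enzymes break it down. Cyp26a1 is a classical target of these receptors, and several of the alcohol and aldehyde dehydrogenases also act on dietary alcohols and other aldehydes.

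Stretches of DNA next to the starts of 3 of these genes are shown as a description, with no test of a link to the RNA levels. They were read from the RefSeq promoter table of mouse build GRCm38.p6, in which all 9 genes had a window, and distances are counted from the start that this table gives. The deposited counts were made on GRCm39, per the submitters' processing notes, so the coordinates here serve only to place the sequences. The Cyp26a1 site is shown because Cyp26a1 differed most between the groups. It covers chr19:37697770-37697799 on the plus strand, which is the strand of the gene, and its last bases lie in the first exon of the GENCODE M21 annotation, whose start is slightly upstream of the RefSeq one. The capitals mark 2 copies of a receptor half-site, AGTTCA, read on the other strand and spaced by 5 bases.
Cyp26a1: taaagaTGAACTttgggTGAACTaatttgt
A search on both strands for direct repeats of AGGTCA or AGTTCA in any pairing, with 5 bases between them, found such a repeat in 13 of the 32851 windows of 300 bases, which is 0.0396%. Among the 11 windows of the 9 genes it was found only in that of Cyp26a1, at bases -32 to -16 from the RefSeq start. The same half-sites spaced by 2 bases were found in 0.0396% of all windows and in none of these 11. Spaced by 1 base they were found in 0.0822% of all windows and, among the 11 in that of Bco1, as a repeat of AGGTCA on the minus strand at -56 to -44.

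Aldh1a1 and Aldh1a7 are neighbouring, closely related genes on chromosome 19, and their upstream stretches are shown because their RNA differed in the same direction between the sexes on the high fat diet. The RefSeq table lists 2 starts for Aldh1a1, and the stretch printed precedes the one nearer to the coding exons, which lies inside the longest annotated span of the gene. The printed 120 bases run from -140 to -21 of that start and of the start of Aldh1a7, at chr19:20601828-20601947 on the plus strand for Aldh1a1 and at chr19:20727577-20727696 on the minus strand for Aldh1a7. No annotated exon lies in them. The capitals mark the longest run shared by both.
Aldh1a1: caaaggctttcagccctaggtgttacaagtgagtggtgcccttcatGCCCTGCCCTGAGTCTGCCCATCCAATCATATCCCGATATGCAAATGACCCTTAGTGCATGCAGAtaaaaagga
Aldh1a7: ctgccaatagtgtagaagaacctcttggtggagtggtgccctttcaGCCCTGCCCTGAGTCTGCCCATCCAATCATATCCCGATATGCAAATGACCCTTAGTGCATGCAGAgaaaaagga
The shared run is 65 bases long, at the same distance from both starts (-94 to -30), and 89 of the 120 printed bases, or 74.2%, are identical. The coding sequences of the 2 genes are identical at 1377 of 1503 bases, or 91.6%. Reads from such similar genes can be assigned to either, so the split of counts between Aldh1a1 and Aldh1a7 is uncertain, and their sum is given beside them.

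Library totals ranged from 22228115 to 41420589 expected counts. MHF replicates 2 and 3 were far closer to each other than any other pair within a group: the chi-square statistic per gene between them was 4.07, against 55.6 for the next closest pair of MHF and at least 20.9 in the other groups. They were kept as 2 samples, as the labels list them. Calls of the genes described that are lost without both are given, with some of the values that turn or shift. The labels do not state that each library came from a separate animal, so p-values measure the spread between these libraries, which may be technical. Hepatocyte markers, the defining markers of liver, were high in every library. Their summed level was from 42501 to 55356 TPM in MHF and from 58682 to 85960 TPM in the other groups. Most of that sum was Alb, at 25496 to 39208 TPM in MHF and 40923 to 62840 TPM in the other groups. The MHF range of each other marker overlapped that of some other group. With the high fat diet 2 of the 6 hepatocyte markers were called lower in females (Hnf4a and Cps1) and 3 in males (Alb, Serpina1a and Hnf4a). Of all tested genes 5.76% were called lower in females and 5.36% in males. Between the sexes on that diet Alb was called higher and Hnf4a lower in females, against 8.84% of all tested genes higher and 11.6% lower. Of 6 markers of Kupffer cells and macrophages, 3 (Clec4f, Vsig4 and Timd4) were called higher in females on that diet, against that 8.84%. The list summed to 182 to 278 TPM in FHF and 80.4 to 167 TPM in MHF. The macrophage list summed to 104 to 135 TPM in FNC and 80.7 to 138 TPM in MNC. With the high fat diet 1 of its 6 genes, Cd68, was called higher in each sex. Of all tested genes 5.74% were called higher in females and 6.03% in males. The part of these markers in the results below was not tested. In whole liver, fewer cells of a type and less RNA per cell cannot be told apart.

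Per transcript length, the 9 genes spanned more than 3 orders of magnitude. TPM (the deposited unit that accounts for transcript length) averaged over the 16 libraries was 3741 for Rbp4, 1612 for Adh1 and 998 for Aldh1a1, which ranked 41, 76 and 113 among all listed genes. Retsat followed with 249 TPM, Aldh1a7 with 120, Adh4 with 88.0 and Rdh16 with 56.0. Bco1 was at 4.56 TPM and Cyp26a1 lowest at 2.51 TPM. Levels of 1 gene across groups are given below as CPM, counts relative to the scaled library size. The highest group mean over the lowest was 7.71 for Cyp26a1, 2.48 for Aldh1a1, 2.13 for Aldh1a7 and 2.06 for Rdh16, and from 1.24 (Rbp4) to 1.58 (Retsat) for the other 5 genes.

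**Figure D1:**
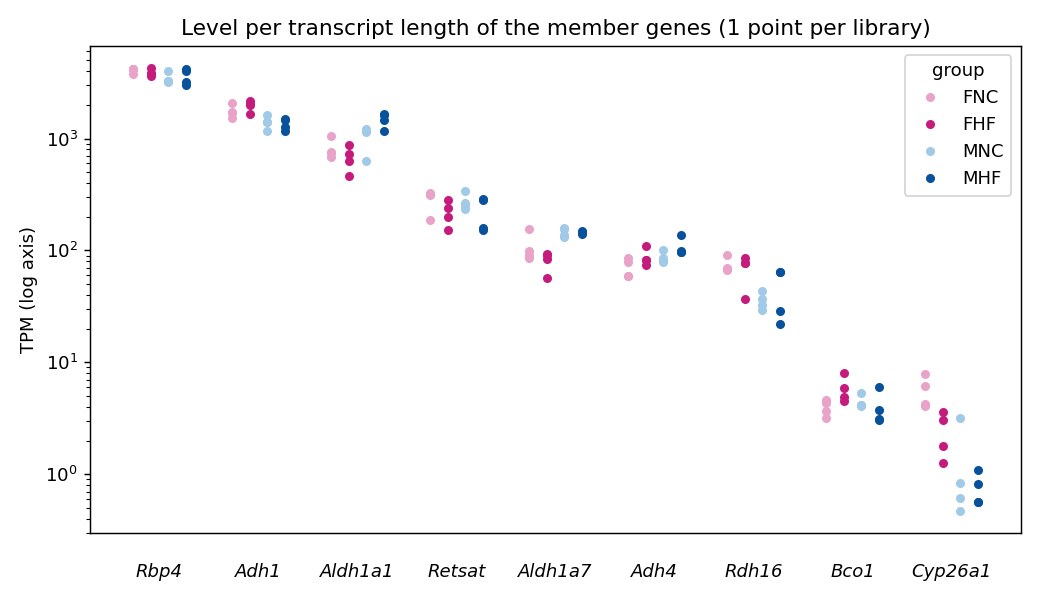
TPM (log axis) of each of the 9 genes, with 1 point per library, coloured by group (FNC and FHF, females on the normal and high fat diet; MNC and MHF, males on the normal and high fat diet). Rbp4, Adh1 and Aldh1a1 lie highest, at means of 3741, 1612 and 998 TPM, and Cyp26a1 lies lowest and is the most spread between groups.

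With the high fat diet 1 of these 9 genes was called in females, near the share of all tested genes. Aldh1a7 fell in females on the high fat diet, and no other member was called in either sex. Calls rest on edgeR's quasi-likelihood test at an adjusted p under 0.05, with the Benjamini-Hochberg adjustment made across the 14781 tested genes. In females 1 of 9 members was called, lower, against 11.5% of all tested genes in either direction (5.74% higher, 5.76% lower). An unadjusted p under 0.05 was found for 5 of 9, against 27.2% of all, and the libraries of the diet groups did not overlap for 2 of 9 (Cyp26a1 and Aldh1a7), against 18.3% of all. The median log2 fold change of the 9 was -0.34, against 0.00 over all genes. The count of 1 became 0 without FNC replicate 3 and 2 without FHF replicate 3, MNC replicate 2 or MNC replicate 3.

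In males 0 of 9 were called by edgeR, DESeq2 or limma, against 11.4% of all genes by edgeR (6.03% higher, 5.36% lower). None of the 9 had an unadjusted p under 0.05 by edgeR, against 27.5% of all, and for none were the diet groups free of overlap, against 18.5% of all. The median log2 fold change was -0.08, against 0.01 over all genes.

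Between the sexes more members were called than with diet, and so were more of all tested genes. Cyp26a1 and Rdh16 were higher in females on the normal diet, 2 of 9 members, against 15.7% of all genes called in either direction (7.03% higher, 8.68% lower). An unadjusted p under 0.05 was found for 5 of 9, against 30.9% of all, and the sexes did not overlap for the same 2 genes, against 22% of all. The count of 2 became 1 without FNC replicates 1, 2 or 4, FHF replicate 4 or any of the MNC libraries, each left out in turn, and 3 without FHF replicate 1. Aldh1a1, Aldh1a7 and Adh4 were lower in females on the high fat diet, 3 of 9, against 20.4% of all genes called (8.84% higher, 11.6% lower). An unadjusted p under 0.05 was again found for 5 of 9, against 35.1% of all, and the sexes did not overlap for 3 of 9 (Cyp26a1, Aldh1a1 and Aldh1a7), against 22.7% of all. The count of 3 became 2 without FHF replicate 3, FHF replicate 4 or MHF replicate 4, and 5 without MNC replicate 2 or without MHF replicates 2 and 3 together.

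The difference of the diet's effect between females and males was tested as an interaction. None of the 9 was called in it by edgeR or DESeq2, against 0.677% of all genes by edgeR (0.264% higher, 0.413% lower). Aldh1a1 and Aldh1a7 had an unadjusted p under 0.05 in it, against 13% of all genes. The diet and sex comparisons share their groups, so they are not independent of each other.

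**Figure D2:**
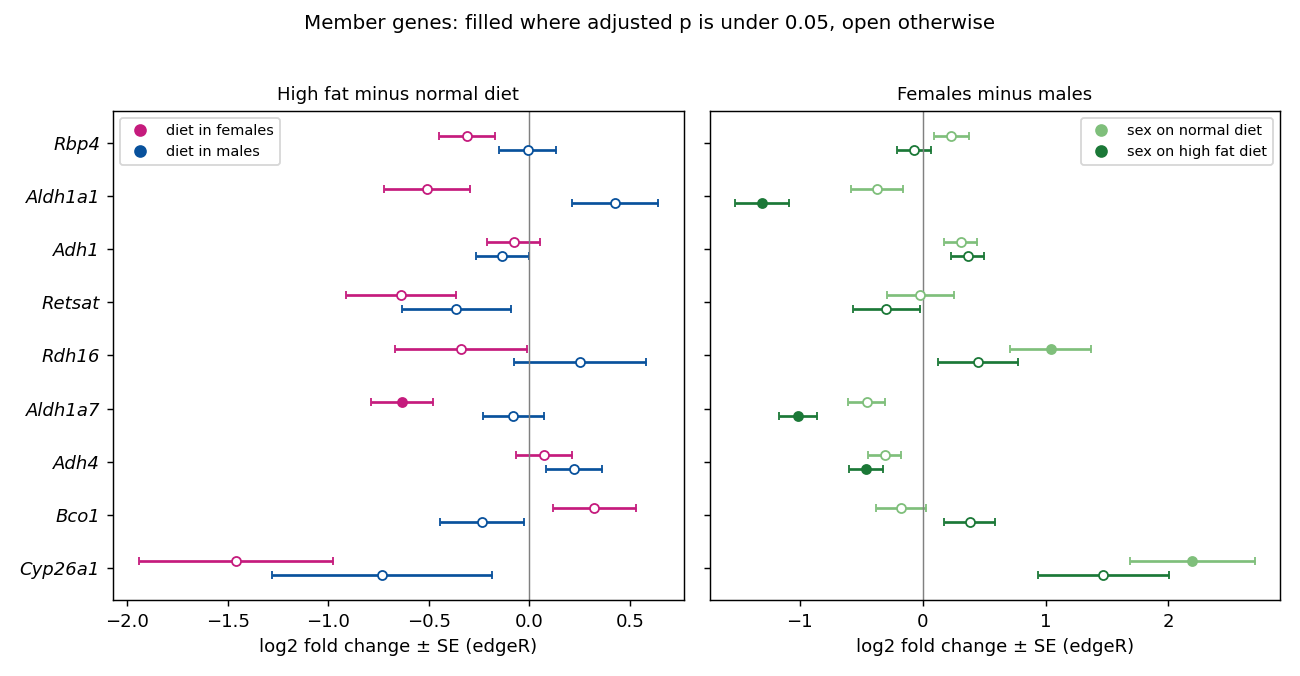
Log2 fold change ± SE of the 9 genes from edgeR, on the left for the high fat against the normal diet in each sex and on the right for females against males on each diet. Filled points have an adjusted p under 0.05: Aldh1a7 for diet in females, Cyp26a1 and Rdh16 for sex on the normal diet, and Aldh1a1, Aldh1a7 and Adh4 for sex on the high fat diet.

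Cyp26a1 encodes the hydroxylase that clears retinoic acid. Its 4 FNC libraries had 5.71, 11.1, 7.46 and 5.62 CPM, and the FHF libraries 1.42, 1.98, 4.23 and 3.30 CPM. The MNC libraries had 1.19, 0.599, 4.10 and 0.839 CPM, and the MHF libraries 0.706, 1.05, 1.41 and 0.708 CPM. All FNC libraries lay above every library of the other 3 groups, and among the males MNC replicate 3 stood apart. Cyp26a1 was 4.58-fold higher in females than in males on the normal diet, a log2 fold change of 2.20 ± 0.51 (SE; edgeR adjusted p = 0.009), and it was called under all 25 other settings tried, with adjusted p from 6.63e-05 to 0.0318. Without MNC replicate 3 the log2 fold change was 3.11.

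Cyp26a1 averaged 2.73 ± 1.27 CPM (SD, n = 4) in females on the high fat diet, against 7.47 ± 2.55 on the normal diet. The libraries of these groups did not overlap. The log2 fold change was -1.46 ± 0.48 (SE), and its edgeR adjusted p of 0.0628 missed the threshold. Of 25 other settings 7 called it: DESeq2 (adjusted p = 0.0151), limma on log2(TPM + 1) (0.0341), a fit of the 2 groups alone (0.0206), a replicate block (0.0219), and the fits without FHF replicate 3 (0.0485), MNC replicate 2 (0.0469) or MNC replicate 3 (0.0107). Over the settings the adjusted p ran from 0.0107 to 0.180. In males it averaged 1.68 ± 1.63 CPM on the normal and 0.969 ± 0.335 CPM on the high fat diet, with a log2 fold change of -0.73 ± 0.55 (edgeR adjusted p = 0.419) that was 0.18 without MNC replicate 3 and -1.19 without MHF replicates 2 and 3. Between the sexes on the high fat diet the libraries again did not overlap, with a log2 fold change of 1.47 ± 0.53, which missed the threshold (edgeR adjusted p = 0.0625, and 0.0101 to 0.166 over the other settings). At such levels a library held between 16 and 361 counts of Cyp26a1, so counting error adds to its spread.

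Aldh1a1 encodes a cytosolic enzyme that oxidizes retinal to retinoic acid. It had 1220.0, 1259, 1526 and 1057 CPM in FNC and 617, 831, 1000.4 and 1111 CPM in FHF. In MNC it had 1956, 954, 1722 and 1923 CPM, and in MHF 1738, 2459.8, 2498 and 2113 CPM. Every MHF library lay above every FHF and FNC library, while MNC replicate 2 lay below all 4 FNC libraries. Aldh1a1 was 2.48-fold lower in females than in males on the high fat diet (log2 fold change -1.31 ± 0.22, edgeR adjusted p = 0.000562), and it was called under all 26 other settings, with adjusted p from 1.2e-07 to 0.00693. Without MHF replicates 2 and 3 the log2 fold change was -1.11.

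On the normal diet the difference in Aldh1a1 between the sexes was -0.37 ± 0.21 (log2, females minus males, edgeR adjusted p = 0.25). Its diet changes had opposite signs, -0.51 ± 0.21 in females (edgeR adjusted p = 0.129) and 0.43 ± 0.21 in males (edgeR adjusted p = 0.204), and neither was called. Without MHF replicates 2 and 3 the male value was 0.23. The interaction, the female change minus the male change, was -0.93 ± 0.30 on the log2 scale, with an unadjusted p of 0.00616 and an edgeR adjusted p of 0.182. No other setting called it, with adjusted p from 0.0787 to 0.414.

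Aldh1a7 encodes an aldehyde dehydrogenase closely related to that of Aldh1a1. It had 150.4, 144, 225 and 154 CPM in FNC and 126, 74.8, 117 and 116 CPM in FHF. In MNC it had 232, 235, 245 and 211 CPM, and in MHF 211, 222, 226 and 214 CPM. The 8 male libraries lay close together, all FHF libraries lay below all others, and FNC replicate 3 alone reached the male range. In females Aldh1a7 fell on the high fat diet by 0.63 ± 0.15 on the log2 scale (edgeR adjusted p = 0.0132), and in males the log2 fold change was -0.08 ± 0.15 (edgeR adjusted p = 0.785). The interaction was -0.55 ± 0.22 (log2), with an unadjusted p of 0.0195 and an edgeR adjusted p of 0.282.

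The fall of Aldh1a7 in females depended on FNC replicate 3: without it the log2 fold change was -0.45 and the adjusted p 0.0529. It was also not called in a fit of FNC and FHF alone (0.0505) or by limma on log2(TPM + 1) (log2 fold change -0.39, adjusted p = 0.118) or log2(TPM + 0.1) (0.119). Over 25 other settings the adjusted p ran from 0.00179 to 0.119. Aldh1a7 was 2.02-fold lower in females than in males on the high fat diet (log2 fold change -1.01 ± 0.15, edgeR adjusted p = 0.000269), and it was called under all 25 other settings (4.43e-08 to 0.00405). On the normal diet the difference was -0.46 ± 0.15, which just missed the threshold (edgeR adjusted p = 0.0501). It was called in 6 of 25 other settings: by DESeq2 (adjusted p = 0.031), in the edgeR fit of the 2 groups alone (0.0364), with a replicate block (0.0287), and without FNC replicate 3 (-0.62, 0.0101), FHF replicate 1 (0.0405) or FHF replicate 2 (0.022).

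With the counts of Aldh1a1 and Aldh1a7 summed, the sum was lower in females than in males on the high fat diet, by -1.28 ± 0.20 on the log2 scale (edgeR adjusted p = 0.000282). The change of the sum with diet in females was -0.52 ± 0.19 and was not called (edgeR adjusted p = 0.0866). In TPM, Aldh1a1 exceeded Aldh1a7 by 7.69 ± 0.969 times (SD, n = 4) in FNC, 8.60 ± 2.65 times in FHF, 7.21 ± 2.27 times in MNC and 10.1 ± 1.34 times in MHF.

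**Figure D3:**
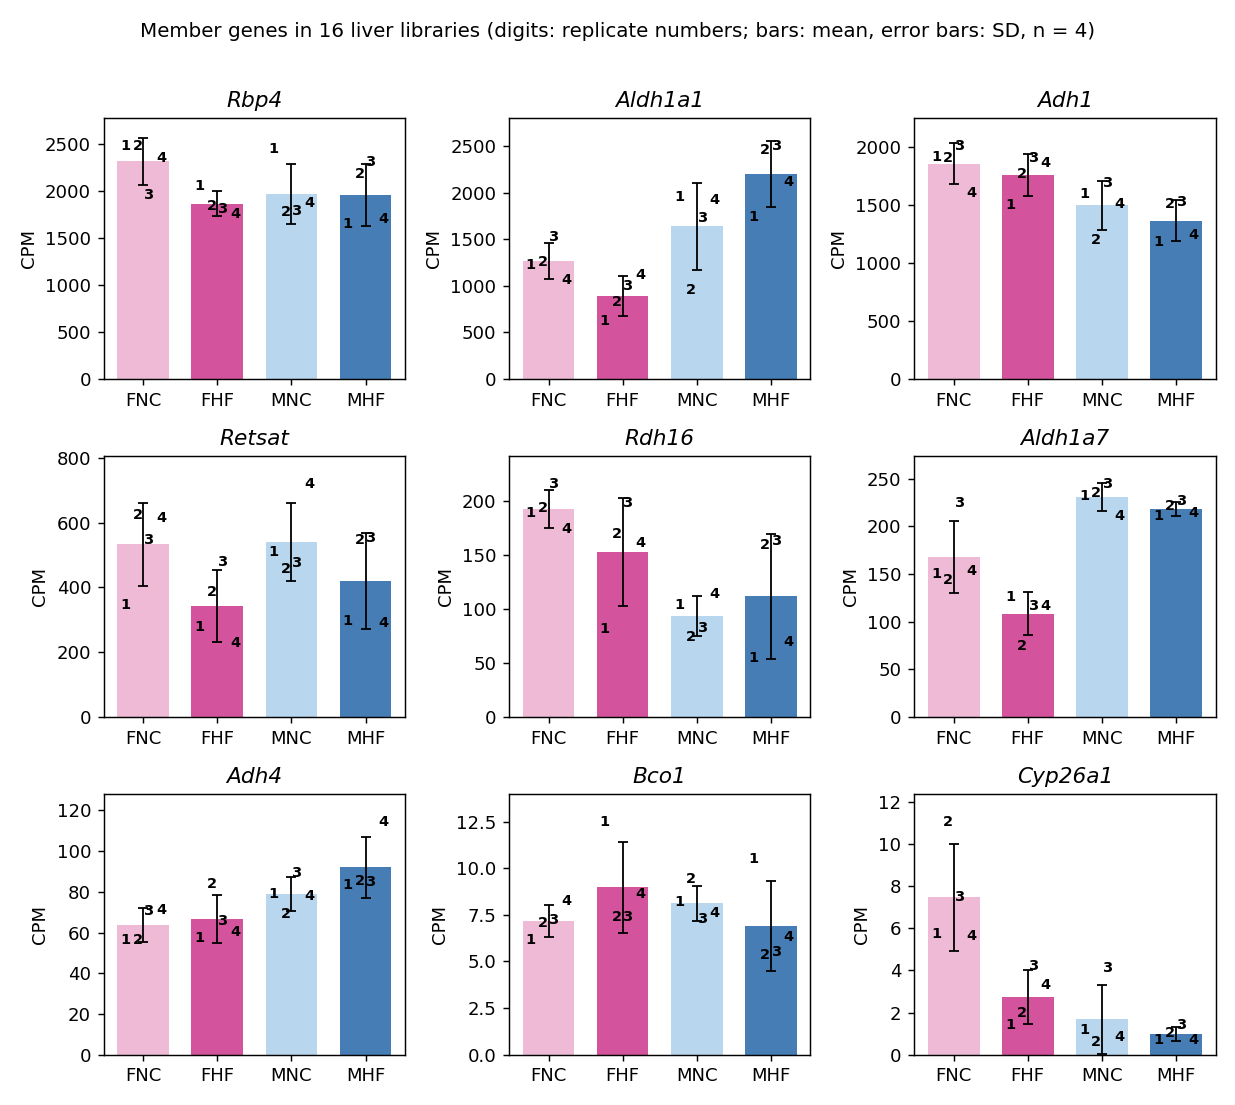
CPM of each of the 9 genes by group; bars give the mean and error bars the SD of 4 libraries, and digits mark each library by its replicate number. Cyp26a1 is highest in the 4 FNC libraries, Aldh1a1 and Aldh1a7 are lowest in FHF, and in MHF replicates 2 and 3 lie together for Rdh16 and Retsat, above replicates 1 and 4.

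Rdh16 encodes a microsomal retinol dehydrogenase of the short-chain family. It had 188, 193, 216 and 173 CPM in FNC and 81.5, 169, 198 and 161 CPM in FHF. In MNC it had 104, 74.1, 82.7 and 114 CPM, and in MHF 54.8, 159, 163 and 68.9 CPM. All FNC libraries lay above all MNC libraries, and the MHF group split into replicates 2 and 3, near the female values, and replicates 1 and 4, below 70 CPM. Rdh16 was 2.06-fold higher in females than in males on the normal diet (log2 fold change 1.04 ± 0.33, edgeR adjusted p = 0.0458).

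That call of Rdh16 was close to the threshold. Leaving out each FNC library, each MNC library, FHF replicate 2 or FHF replicate 4 in turn, 10 of 16 such fits, lost it, with adjusted p from 0.0569 to 0.119 and log2 fold changes from 0.95 to 1.15. It was also lost with no filter on low counts (adjusted p = 0.126) and with a replicate block (0.0538). On the high fat diet the difference was 0.45 ± 0.33 (edgeR adjusted p = 0.351). Without MHF replicates 2 and 3 it was 1.30 (adjusted p = 0.00478). The diet changes of Rdh16 were -0.34 ± 0.33 in females (edgeR adjusted p = 0.545) and 0.25 ± 0.33 in males (0.664). Without those 2 libraries the male value was -0.60 and was not called.

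Rdh16 belongs to a cluster of near-identical genes: its coding sequence is 96.3% identical to that of Rdh9, 93.1% to Rdh1 and 91.8% to Rdh16f2. An annotated pseudogene, Rdh18-ps, shares exon bases with it on the same strand, so its counts may hold reads of these relatives. The sum of Rdh16, Rdh16f1 and Rdh16f2 leaves out Rdh9, Rdh1 and Rdh19 (94.1% identical) and in females holds more counts of Rdh16f2 (281 CPM in FNC) than of Rdh16 (193 CPM). This sum was higher in females by 1.55 ± 0.20 on the normal diet (edgeR adjusted p = 7.79e-05) and by 1.18 ± 0.20 on the high fat diet (edgeR adjusted p = 0.000779). In TPM the ratio of Rdh16 to Rdh16f2 was 0.231 in FNC, 0.215 in FHF, 0.465 in MNC and 0.601 in MHF.

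Adh4 encodes a class of alcohol dehydrogenase that also oxidizes retinol. It had 56.2, 56.3, 70.6 and 70.9 CPM in FNC, 57.2, 83.8, 65.6 and 60.5 CPM in FHF, 78.9, 69.1, 89.4 and 77.8 CPM in MNC, and 83.2, 85.4, 84.9 and 115 CPM in MHF. MHF replicate 4 stood above the rest, and FHF replicate 2 overlapped the MHF libraries. Adh4 was lower in females on the high fat diet by a log2 fold change of -0.46 ± 0.14 (edgeR adjusted p = 0.025). The call was lost without FHF replicate 1 (-0.39, adjusted p = 0.0737), FHF replicate 3 (-0.43, 0.0555), FHF replicate 4 (-0.42, 0.0758) or MHF replicate 4 (-0.34, 0.105), in a fit of the 2 groups alone (0.0753), and on log2(TPM + 1) (0.178) or log2(TPM + 0.1) (0.181). Its adjusted p ran from 0.0067 to 0.181 over the settings. On the normal diet the difference was -0.31 ± 0.14 (edgeR adjusted p = 0.134), and the diet changes were 0.07 ± 0.14 in females (0.775) and 0.22 ± 0.14 in males (0.311).

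Adh1 encodes the main ethanol-oxidizing alcohol dehydrogenase of liver. It had 1908, 1902, 2006 and 1605 CPM in FNC, 1496, 1769, 1903 and 1863 CPM in FHF, 1595, 1196, 1686 and 1508 CPM in MNC, and 1182, 1506, 1523 and 1244 CPM in MHF. The groups overlapped in every comparison, with female means above male ones. The sex difference was 0.31 ± 0.13 (log2, females minus males) on the normal diet (edgeR adjusted p = 0.122) and 0.37 ± 0.13 on the high fat diet (edgeR adjusted p = 0.0595). The second of these was called in 9 of 25 other settings, among them DESeq2 (0.0198) and the fit without MHF replicates 2 and 3 (0.54, adjusted p = 0.023). The diet changes were -0.08 ± 0.13 in females (edgeR adjusted p = 0.746) and -0.13 ± 0.13 in males (0.557), and that in females had the opposite sign on TPM. Without MHF replicates 2 and 3 the male value was -0.31 and was not called. A gene on the other strand, Gm16559, shares exon bases with Adh1. The sources used here do not say whether counting used the strand.

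Rbp4, whose protein carries retinol in blood, had 2473, 2473, 1949.8 and 2346 CPM in FNC and 2054, 1837, 1805 and 1757 CPM in FHF. In MNC it had 2438, 1776, 1781 and 1869.6 CPM, and in MHF 1642, 2174, 2303 and 1700.2 CPM. FNC replicate 3 lay inside the FHF range and MNC replicate 1 stood above the other MNC libraries. The log2 fold change with diet was -0.31 ± 0.14 in females (edgeR adjusted p = 0.16) and -0.01 ± 0.14 in males (0.978). Between the sexes it was 0.23 on the normal diet (edgeR adjusted p = 0.279) and -0.07 on the high fat diet (0.755), and no other setting called any of these. On TPM the sign turned in males (0.06) and between the sexes on the high fat diet (0.11). Without MHF replicates 2 and 3 these values were -0.24 and 0.16.

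Retsat encodes retinol saturase, an enzyme of the endoplasmic reticulum. It had 347, 623, 548 and 615 CPM in FNC, 278, 386, 479 and 228 CPM in FHF, 509, 457, 475 and 720.1 CPM in MNC, and 296, 545, 551 and 289.6 CPM in MHF. MHF again split into replicates 2 and 3, within the MNC range, and replicates 1 and 4, below it. The log2 fold change with diet was -0.64 ± 0.27 in females (edgeR adjusted p = 0.138) and -0.36 ± 0.27 in males (0.419), and -0.89 in males without MHF replicates 2 and 3, which was not called either. The sexes differed by -0.02 on the normal (edgeR adjusted p = 0.974) and -0.30 on the high fat diet (0.46), and the latter was 0.23 without MHF replicates 2 and 3. A gene on the other strand, Gm45053, shares exon bases with Retsat.

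Bco1 encodes the enzyme that cleaves beta-carotene to retinal. It had 6.15, 7.05, 7.25 and 8.26 CPM in FNC, 12.5, 7.41, 7.37 and 8.63 CPM in FHF, 8.19, 9.42, 7.26 and 7.58 CPM in MNC, and 10.5, 5.33, 5.50 and 6.33 CPM in MHF. Replicate 1 was highest in both high fat diet groups. The log2 fold change with diet was 0.32 ± 0.21 in females (edgeR adjusted p = 0.329) and -0.23 ± 0.21 in males (0.505). Between the sexes it was -0.18 on the normal diet (edgeR adjusted p = 0.603) and 0.38 on the high fat diet (0.2). Without MHF replicate 1 the latter was 0.69 and called (adjusted p = 0.0166). Without MHF replicates 2 and 3 it was 0.09, and the change with diet in males was 0.05.

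The other genes of the pathway were taken from a list of 51, of which 40 had enough counts to be tested. The 11 that did not, such as Stra6, the membrane receptor for retinol-binding protein, Aldh1a2, Cyp26c1, Crabp1 and Crabp2, had at most 15 counts in any library. With diet 9 of the 40 were called in females, 4 higher (Stra6l, Dhrs3, Bco2 and Rxrg) and 5 lower (Pnpla2, Rdh11, Rdh13, Adh5 and Acss2), against 11.5% of all tested genes. In males 8 were called, 5 higher (Stra6l, Scarb1, Lipe, Bco2 and Rxrg) and 3 lower (Pnpla2, Rdh11 and Rdh13), against 11.4% of all. The male count was 4 without MNC replicate 1, MNC replicate 4, MHF replicate 2 or MHF replicate 3, 5 without MNC replicate 3, 12 without MHF replicate 1, and 3 without MHF replicates 2 and 3 (Stra6l, Pnpla2 and Rdh11). The calls over all tested genes in males moved too. They were 1684 of 14781 with every library, 1912 of 15067 without MHF replicate 1 and 1182 of 15524 without MHF replicates 2 and 3.

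Between the sexes on the normal diet 11 of the 40 were called, all higher in females: Lrat, Rdh5, Rdh9, Rdh11, Rdh16f2, Dhrs3, Cyp26b1, Rarb, Rarg, Aldh9a1 and Acss2. Of all tested genes 15.7% were called in that comparison, 7.03% higher and 8.68% lower. The median log2 fold change of the 40 was 0.30, against 0.00 over all genes. On the high fat diet 6 were higher in females (Rdh16f2, Dhrs3, Bco2, Rarb, Rarg and Rxrb) and 3 lower (Lipe, Adh7 and Cat), 9 in all, against 20.4% of all tested genes. No gene of the list was called in the interaction by edgeR, DESeq2 or limma, where edgeR called 0.677% of all tested genes. By edgeR 6 of the 40 had an unadjusted p under 0.05 in it, against 13% of all tested genes. The list was chosen with earlier results of these data known, so its counts are descriptions.

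**Figure D4:**
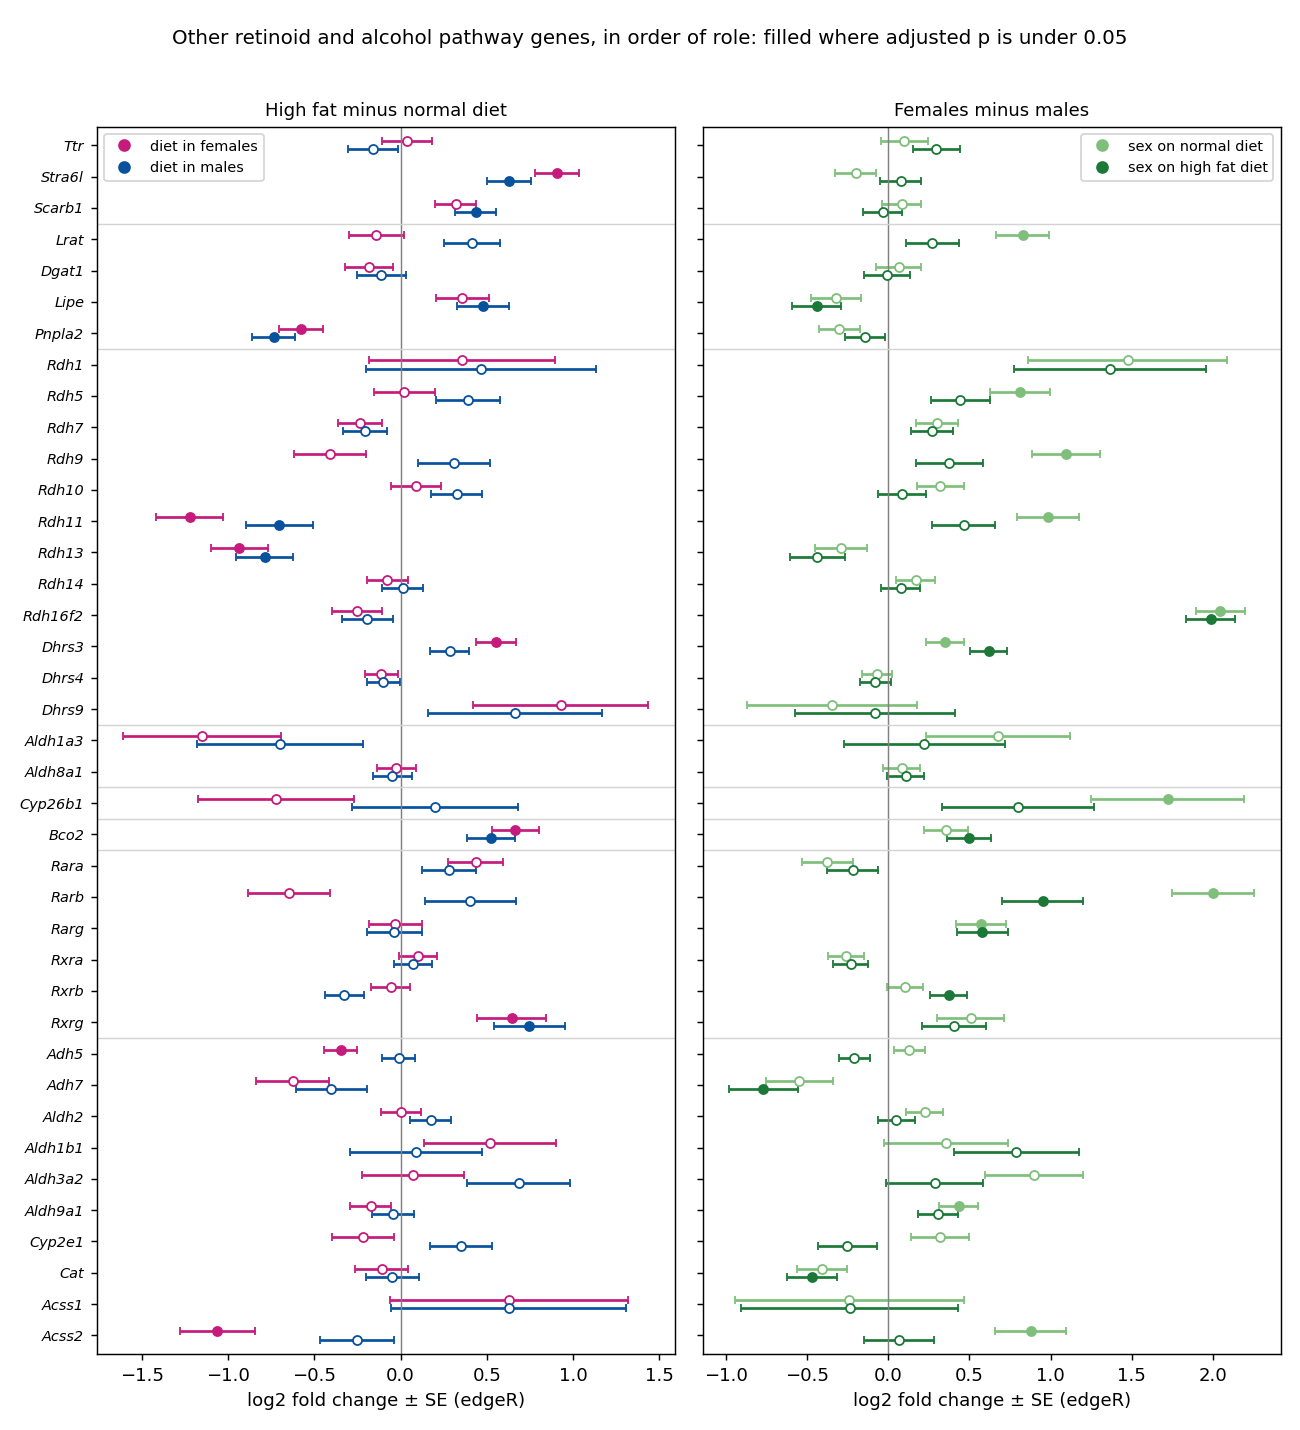
Log2 fold change ± SE from edgeR of the tested genes of the wider list that are reported here, grouped by role from top to bottom (binding and uptake, esterification and hydrolysis, retinol and retinal oxidoreductases, retinal oxidation, retinoic acid hydroxylation, carotenoid cleavage, receptors, alcohol and acetaldehyde oxidation). Filled points have an adjusted p under 0.05. Rdh16f2 is higher in females on both diets, and Rdh11, Rdh13 and Pnpla2 are lower on the high fat diet in both sexes.

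In binding and uptake, Stra6l, which encodes a membrane receptor for retinol-binding protein in liver, rose with the high fat diet in both sexes. It had 57.1, 49.9, 51 and 55.3 CPM in FNC against 93.2, 103, 98.7 and 104 CPM in FHF, and 54.1, 79.4, 64.5 and 47.1 CPM in MNC against 107, 89.9, 90.1 and 92.0 CPM in MHF. The diet groups did not overlap in either sex. The log2 fold change was 0.91 ± 0.13 in females (edgeR adjusted p = 0.000265) and 0.63 ± 0.13 in males (0.00415), and both were called under all 25 other settings.

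Of the genes that store retinyl esters or hydrolyse lipids, Lrat, which esterifies retinol, was higher in females on the normal diet. It had from 29.4 to 35.8 CPM in FNC and from 16.7 to 19.4 CPM in MNC, a log2 fold change of 0.83 ± 0.16 (edgeR adjusted p = 0.0025). Lrat also marks stellate cells. Of the 9 stellate markers listed, 4 were called higher in females on the normal diet (Lrat itself, Ecm1, Colec11 and Dcn). Of all tested genes 7.03% were called higher there. All 9 markers together summed to 298 to 321 TPM in FNC and 194 to 226 TPM in MNC. Most of that sum was Dcn, at 172 to 192 TPM in FNC and 114 to 132 TPM in MNC. On the high fat diet 3 were called higher in females (Des, Ecm1 and Colec11), against 8.84% of all tested genes. All 9 markers summed to 337 to 369 TPM in FHF and 237 to 282 TPM in MHF. The part of stellate cell RNA in any difference between the sexes was not tested.

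Lrat on the high fat diet differed between the sexes by 0.27 ± 0.16 (edgeR adjusted p = 0.24). Without FHF replicate 1, which had 17 CPM against 29.7 to 35.0 in the other FHF libraries, the difference was 0.46 and called (adjusted p = 0.00835). Pnpla2, a lipase of lipid droplets, fell with the high fat diet from 65.3 ± 4.16 to 43.7 ± 7.48 CPM (SD, n = 4) in females and from 80.4 ± 10.5 to 48.2 CPM in males. Its log2 fold change was -0.58 ± 0.13 in females (edgeR adjusted p = 0.00713), not called on log2(TPM + 1) (-0.33, 0.0846), and -0.74 ± 0.13 in males (0.00116). Adipocyte markers other than Cfd were low in every library. Lep was at most 0.09 TPM and Plin1 at most 0.39 TPM. Cfd reached 20.1 TPM in MHF against at most 1.99 TPM in the other groups. Of 5 markers of pancreatic acinar cells, Cpa1 reached 3.19, Prss2 7.67, Pnlip 8.06 and Ctrb1 8.20 TPM in MHF. In the other groups these had at most 1.68 TPM, while Cela1, of the same list, had from 21.0 to 57.9 TPM over all groups. The part of Cfd and of the acinar genes in the results in males was not tested.

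Among the oxidoreductases that interconvert retinol and retinal, 3 of 12 were called with diet in females (Rdh11, Rdh13 and Dhrs3) and 2 in males (Rdh11 and Rdh13), against 11.5% and 11.4% of all genes. Rdh11 had 76.6, 48.5, 82.8 and 61.7 CPM in FNC and 21.3, 25.5, 43.0 and 25.8 CPM in FHF, and its male values were 35.0, 35.6, 31.5 and 34.2 CPM in MNC and 21.1, 23.6, 22.5 and 16.4 CPM in MHF. The diet groups did not overlap in either sex. It fell by 1.22 ± 0.19 on the log2 scale in females (edgeR adjusted p = 0.000798) and by 0.70 ± 0.19 in males (0.0259). The male call was lost without MNC replicate 1 (0.059), MNC replicate 2 (0.0576), MNC replicate 4 (0.0501) or MHF replicate 4 (0.083), with no filter on low counts (0.0567) and on TPM (0.0613 and 0.0525), and over all settings the adjusted p ran from 0.00455 to 0.083. The interaction of Rdh11 was -0.52 ± 0.27 (edgeR adjusted p = 0.443).

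Rdh13, a mitochondrial member of the same family, fell from 10.4 ± 1.18 to 5.40 ± 0.747 CPM (SD, n = 4) in females (log2 fold change -0.93 ± 0.17, edgeR adjusted p = 0.00192). In males it went from 12.6 ± 1.21 to 7.33 ± 2.03 CPM (-0.79 ± 0.17, edgeR adjusted p = 0.0051), which was not called without MHF replicates 2 and 3 (-0.58, 0.0639). Dhrs3, which reduces retinal to retinol, rose in females from 64.4 ± 5.90 to 94.6 ± 5.61 CPM (0.55 ± 0.11, edgeR adjusted p = 0.00537). In males it went from 50.6 ± 3.37 to 61.6 CPM (0.28 ± 0.12, edgeR adjusted p = 0.117), and the value was 0.04 without MHF replicates 2 and 3. Dhrs3 was higher in females by 0.62 ± 0.12 on the high fat diet (edgeR adjusted p = 0.00144) and by 0.35 ± 0.12 on the normal diet (0.0472). The latter call was lost without FNC replicates 2, 3 or 4, FHF replicates 2, 3 or 4, or MNC replicates 2, 3 or 4, each left out in turn, with adjusted p from 0.0533 to 0.124.

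Rdh16f2 had the largest sex difference of the 40 genes by log2 fold change on both diets. It had 337, 295, 241 and 252 CPM in FNC and 231, 238, 219.7 and 257 CPM in FHF, against 75.1, 78.2, 62.4 and 57.1 CPM in MNC and 60.4, 67.8, 67.1 and 43.4 CPM in MHF. Every female library lay above every male one. The log2 fold change was 2.04 ± 0.15 on the normal diet (4.12-fold, edgeR adjusted p = 7.54e-08) and 1.98 ± 0.15 on the high fat diet (3.96-fold, 8.81e-08). Rdh9 was higher in females on the normal diet, with 239, 208, 134 and 182 CPM in FNC and 117, 64.5, 79.4 and 95.8 CPM in MNC (1.10 ± 0.21, edgeR adjusted p = 0.00233). Its difference on the high fat diet was 0.38 ± 0.21 (edgeR adjusted p = 0.206). Counts of Rdh9 and Rdh16f2 share the uncertainty stated for Rdh16.

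Bco2, which cleaves carotenoids off centre, rose with the high fat diet. It had from 18.7 to 21.1 CPM in FNC and from 27.1 to 34.8 CPM in FHF (0.66 ± 0.14, edgeR adjusted p = 0.00497). In males it had 16.9, 16, 16 and 12.7 CPM in MNC and 15.9, 25.2, 25.9 and 21.5 CPM in MHF, where replicate 1 lay inside the MNC range (0.52 ± 0.14, edgeR adjusted p = 0.0195). The male call was lost without MNC replicate 4 (0.0669), MHF replicate 2 (0.068), MHF replicate 3 (0.0717) or both of these MHF libraries (0.28, adjusted p = 0.289). It was also lost with the 2 averaged (0.0701) and in a fit of the male groups alone (0.0554).

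Among the 6 receptors, Rarb, itself a classical target of retinoic acid, was higher in females on both diets. It had 3.48, 4.23, 4.13 and 3.22 CPM in FNC and 0.659, 0.799, 1.34 and 0.974 CPM in MNC (log2 fold change 2.00 ± 0.25, edgeR adjusted p = 4.71e-05). On the high fat diet it had 2.24, 2.02, 2.21 and 3.18 CPM in FHF and 1.52, 1.49, 1.17 and 0.753 CPM in MHF (0.95 ± 0.25, edgeR adjusted p = 0.0131). Neither pair of groups overlapped, and both differences were called under all 25 other settings. With diet in females Rarb did not overlap either, at a log2 fold change of -0.65 ± 0.24 that was not called (edgeR adjusted p = 0.0848). Its interaction was -1.05 ± 0.35, with an unadjusted p of 0.00845 and an edgeR adjusted p of 0.215.

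Rarg was higher in females by 0.57 ± 0.16 on the normal (edgeR adjusted p = 0.0186) and 0.58 ± 0.16 on the high fat diet (0.0151). With no filter on low counts the adjusted p was 0.1 and 0.082, and on the high fat diet it was 0.0596 without MHF replicates 2 and 3. Rxra, the partner of many nuclear receptors, had group means from 259.9 to 328 CPM and was not called in any comparison.

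Of the 10 genes of alcohol and acetaldehyde oxidation, 2 fell with diet in females (Adh5 and Acss2), against 11.5% of all genes called. In males none was called by edgeR, DESeq2 or limma, against 11.4% of all genes by edgeR. By edgeR 1 had an unadjusted p under 0.05 in males, against 27.5% of all. Adh5, which oxidizes the glutathione adduct of formaldehyde, had 410.1, 430.2, 416 and 381 CPM in FNC and 327, 303, 319.6 and 337 CPM in FHF, with no overlap. Its log2 fold change in females was -0.35 ± 0.10 (edgeR adjusted p = 0.0265). The call was lost without FNC replicates 1, 2 or 3 or FHF replicates 2 or 3, each left out in turn (0.0577 to 0.0955), with no filter (0.122), and on log2(TPM + 1) (-0.10, 0.411). Aldh2, the main mitochondrial acetaldehyde dehydrogenase, averaged 1353 ± 47.3 CPM (SD, n = 4) in FNC, 1353 ± 84.5 in FHF, 1158 ± 98.2 in MNC and 1306 in MHF. It was not called in any comparison. Its log2 fold change with diet in males was 0.17, and -0.03 without MHF replicates 2 and 3. Cyp2e1, the ethanol-inducible cytochrome P450, had group means from 8959 to 11421 CPM and was not called either.

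For each member, the genes whose log2 CPM over the 16 libraries was most like its own were sought among the 10649 genes whose mean log2 CPM reached 1 or more. These libraries fall into groups and share depth and scaling, so the correlations are descriptions only, and r within groups, after the group means were taken out, is given second. MHF replicates 2 and 3, the pair far closer than any other, count as 2 libraries in every r. The closest to Cyp26a1 were Cnst (r = 0.89 and 0.754) and Cyp2a12 (0.884 and 0.557). The closest to Aldh1a1 was Aatk (0.916 and 0.758) and to Aldh1a7 was Coq7 (0.897 and 0.463). For Rdh16 it was Agmo (0.959 and 0.944), for Adh4 Abca1 (0.951 and 0.908), for Rbp4 Slc25a5 (0.916 and 0.897), for Adh1 D130043K22Rik (0.914 and 0.838), for Retsat Abcb4 (0.901 and 0.893) and for Bco1 Hnrnpa1 (0.826 and 0.815). The likeness to the nearest gene fell most for Aldh1a7 once the groups' means were removed, then for Aldh1a1 and Cyp26a1, and least for Retsat, Bco1, Rdh16 and Rbp4. Among the members themselves, r within groups was highest for Aldh1a1 and Adh1 (0.895), whose r over all 16 libraries was -0.24, and lowest for Rdh16 and Bco1 (-0.83, and -0.51 over all 16).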

How the data were processed

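Poly(A) RNA libraries of whole liver from 16 samples were analysed, 4 in each of 4 groups taken from the labels. Reads were aligned with STAR and quantified with RSEM on GRCm39, per the submitters' processing notes; their versions, the annotation release and strand settings are not given in the sources used here. The authors deposited RSEM expected counts, which share ambiguous reads between genes (4.89% of entries were not whole), and TPM, which divides by effective length. Symbols were matched on identifiers without version (51487 of 78317).

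Expected counts were rounded and filtered with filterByExpr of edgeR 4.0.16 (R 4.3.3), which kept 14781 genes with 99.94% of counts. TMM scaling and the robust quasi-likelihood test were fitted to all 16 libraries with 1 mean per group, giving 5 two-sided contrasts; p-values were adjusted over all tested genes by the Benjamini-Hochberg method. SE was computed from the log2 fold change and the F statistic (its size over the root of F). CPM are TMM-scaled. The procedure was tested on simulated data of independent libraries, with changes set in FHF alone. That test does not cover libraries as close as MHF replicates 2 and 3. Alternatives were DESeq2 1.42.0, its size factors, no filter, limma 3.58.1 on log2(TPM + 1) and log2(TPM + 0.1), the 2 groups alone, a replicate block, near-identical genes summed, MHF replicates 2 and 3 averaged or, added later, left out, and each library left out. Sequence comparisons used Biopython 1.88 and GENCODE M21 (GRCm38).

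The members and lists were chosen with earlier results of these data known. Named are the 9 members, the 4 called list genes with the smallest p in each contrast of groups, any called in the interaction, further list genes in any case, and the nearest genes by correlation. Other list genes are named only where a count of calls holds them, chosen after their values were seen. A gene that the rule chose is not reported here.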

Additional observations from a re-analysis of the deposited data

Results flagged for a closer look

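In 96 groups of 4 libraries, the 4 groups of each gene described, 7 had a library whose gap to the nearest other, over the range of the group, exceeded Dixon's critical value for 4 samples. Chance flags about 1 in 20 groups. Of the members, Adh4 was at 114.5 CPM in MHF replicate 4 against 83.2 to 85.4 CPM in the other MHF libraries. Aldh1a7 was at 224.7 CPM in FNC replicate 3 against 143.6 to 153.6 CPM. Cyp26a1 was at 4.10 CPM in MNC replicate 3 against 0.599 to 1.19 CPM. Rbp4 was at 2438 CPM in MNC replicate 1 against 1776 to 1869.6 CPM. Each of these libraries lay on the high side of its group.

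Among the other genes of the pathway, Lrat was high in FNC replicate 3 (35.8 CPM against 29.4 to 30.4) and Stra6l in MHF replicate 1 (106.5 CPM against 89.9 to 92.0). Pnpla2 was low in FNC replicate 1, at 59.1 CPM against 66.9 to 68.2.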

How the results depend on the processing

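The number of members called with diet in females was 1, and 2 by DESeq2, 2 with a replicate block, 0 on log2(TPM + 0.1), and 0 to 2 with 1 library left out. With near-identical genes summed it was 0, but there Aldh1a7, the 1 called member, was counted inside Aldh1a1 and could not be called itself. Between the sexes on the normal diet it was 2, 1 with no filter, 3 by DESeq2 and in the fit of the 2 groups alone, and 1 to 3 with 1 library left out. On the high fat diet it was 3, 5 by DESeq2, 5 without MHF replicates 2 and 3, and 2 to 5 with 1 library left out. DESeq2 also called more of all 14781 tested genes than edgeR. With diet in females it called 2322 against 1700, and between the sexes 2895 against 2322 on the normal and 3497 against 3022 on the high fat diet. Without MHF replicates 2 and 3 edgeR called 2704 of 15524 genes between the sexes on the high fat diet. Of the 40 list genes, 8 were called with diet in males, 4 with MHF replicates 2 and 3 averaged, 3 without both, and 4 to 12 with 1 library left out, and 9 between the sexes on the high fat diet, 5 with no filter. Of all genes, 1177 of 15048 were called with diet in males with the 2 libraries averaged. With no filter 2396 of 30041 were called between the sexes on the high fat diet. No called gene changed sign. On log2(TPM + 1) the median log2 fold change of all genes shifted to 0.15 with diet in females and 0.10 between the sexes on the high fat diet, so log2 fold changes in that unit include it: 90.4% of called genes were higher with diet in females, against 49.9% by TMM. Same-number correlations of libraries, with group means removed, ran from -0.159 to 0.180. Between the sexes all were positive, with medians of 0.0968 on the normal and 0.0607 on the high fat diet. Different numbers had medians of -0.0325 and -0.0322 there. Between the diets the same-number medians were -0.0688 in females and -0.106 in males, against 0.0299 and 0.0498. Whether the numbers stand for a shared batch was not tested, so fits with the replicate block are given only as a further setting. Cyp26a1 and Bco1, at few counts, are the members that depth limits most.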
